A study of Mus musculus with 360 samples.

Results

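The 69 mouse genes described here, of 2759 on a targeted RNA panel, encode enzymes that oxidise, reduce or conjugate foreign and endogenous small molecules, and 73 of the panel's 3154 probes read them. A probe was a member when its gene symbol began with Cyp and a digit, Ugt, Sult, Gst, Aldh, Akr, Adh and a digit, Fmo and a digit, or Nat and a digit. Set aside were 17 genes with such names, among them Cyp2b10, Cyp3a11, Cyp1a1 and the alpha class glutathione transferases. The members comprise 18 probes for cytochromes P450 of families 1 to 4, 10 for other P450s, 3 for flavin monooxygenases, 3 for alcohol dehydrogenases, 8 for aldehyde dehydrogenases, 4 for aldo-keto reductases, 12 for UDP-glucuronosyltransferases, 7 for sulfotransferases, 6 for glutathione transferases and 2 for N-acetyltransferases. The rule used names only and no measured value.

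In oxidative metabolism, P450s and flavin monooxygenases add oxygen to a compound, and dehydrogenases and aldo-keto reductases interconvert the resulting alcohols, aldehydes and ketones. In conjugation, transferases attach glucuronic acid, sulfate, glutathione or an acetyl group, which makes the product easier to excrete. The liver carries most of this activity, and the nuclear receptors CAR and PXR, the aryl hydrocarbon receptor and the antioxidant factor NRF2 control many of the genes.

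Female B6D2F1/Crl (BDF-1) mice, aged 9 weeks by the labels, were exposed to 1,2-dichlorobenzene (1,2-DCB) at 0, 1, 10, 30, 100 or 250 ppm or to 1,4-dichlorobenzene (1,4-DCB) at 0, 1, 10, 50, 150 or 400 ppm. The 2 compounds are positional isomers that differ in where the second chlorine sits on the benzene ring. Liver, lung, kidney, heart and ovary were collected on study day 5, and RNA was read by TempO-Seq, in which a pair of detector probes is ligated on each target RNA and counted by sequencing. Each compound had its own 0 ppm animals, and the libraries of 1 animal in several tissues are not independent of each other.

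Of 360 libraries, the 326 that the labels mark as used in the submitters' own analysis entered the tests. A group then held 5 to 10 control animals and 2 to 7 exposed animals, with only 2 in liver at 1 ppm and in kidney at 100 ppm 1,2-DCB. The deposited counts of a library summed to between 4341679 and 46480385. All members had at least 1 count in some library, but 61 of 73 passed the filter on low counts in liver, 58 in kidney, 42 in ovary, 40 in lung and 29 in heart, and 5 passed in no tissue. Since a probe can pass that filter through the one group in which it is high, shares among tested members are not shares of all 73. Levels are CPM, counts scaled to a common library size after TMM normalization. They are compared only within a probe, because probes differ in ligation efficiency. Some probes' counts also appear to have been multiplied by a factor, judged from their values. A change is the log2 ratio of exposed over 0 ppm animals of the same compound from edgeR's quasi-likelihood test, and a member was called when its p, adjusted over all probes tested in the tissue, was under 0.05. In these whole-tissue samples, fewer cells of a type and less RNA per cell cannot be told apart.

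In unexposed animals some members were read mainly in 1 tissue and others in all 5. Cyp1a2, an aryl hydrocarbon receptor target that oxidises aromatic amines, had a median of 214 CPM over 16 liver controls and a median of 0 in each other tissue. Ugt2b36, a glucuronosyltransferase of the steroid-conjugating subfamily, had a median of 1180 CPM in liver and under 1 CPM elsewhere. By contrast, Aldh6a1, which breaks down methylmalonate semialdehyde from valine, was detected everywhere, at a median of 2807 CPM in liver, 8267 in kidney, 1355 in heart, 999 in ovary and 620.5 in lung. Gstm2, a mu class glutathione transferase, was highest in ovary, at a median of 1622 CPM, against 179 in liver. Cyp17a1 and Cyp19a1, which make steroid hormones, had their highest median in ovary, at 510.2 and 29.3 CPM. Cyp24a1, which inactivates vitamin D, had a median of 28.6 CPM in kidney and 0 in each other tissue, and Ugt1a2 had a median of 145.3 CPM in kidney and under 1 CPM elsewhere.

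**Figure D1:**
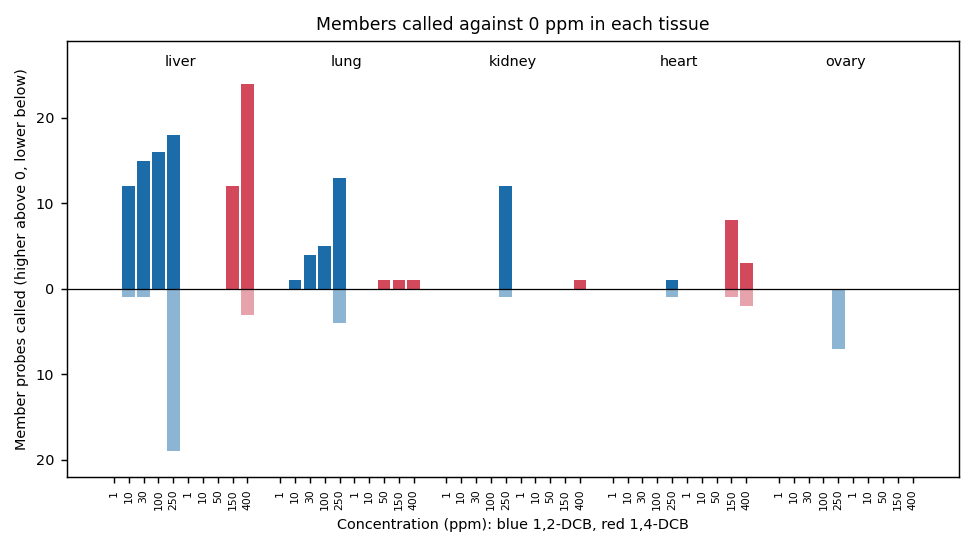
Number of member probes called against 0 ppm of the same compound in each tissue and concentration, with higher calls drawn above 0 and lower calls below. Liver had called members in 6 of its 10 contrasts, and the ovary had 7 lower calls at 250 ppm 1,2-DCB and no higher call.

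At the highest concentrations, the liver enzymes moved in both directions under 1,2-DCB and mostly upward under 1,4-DCB. At 250 ppm 1,2-DCB, 18 of 61 tested members rose and 19 fell. Over all 2601 probes tested in liver, 25.1% were called higher and 24.6% lower in that contrast, 49.8% together. At 400 ppm 1,4-DCB, 24 of 61 rose and 3 fell, and 18% of all probes were called higher and 13.6% lower, 31.6% together. The median log2 change of the members was 0.02 at 250 ppm and 0.27 at 400 ppm, and that of all probes was -0.02 and -0.03. These 2 contrasts used different concentrations, so their values are given side by side and their difference was not tested. Within the members, 13 rose at both concentrations, 3 fell at both and 4 fell at 250 ppm and rose at 400 ppm. A further 17 were called at 250 ppm and not at 400 ppm, and 7 at 400 ppm and not at 250 ppm.

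The promoters of 4 genes are shown because Gstm2 and Cyp8b1 had the smallest adjusted p among members that rose and that fell in liver at 250 ppm, and because Ugt1a7c and Ugt1a5, separate first exons of 1 gene cluster with that of Ugt1a6b between them, were called in opposite directions there. Each is 250 bases before to 50 after the RefSeq gene start (GRCm38.p6), written 5′ to 3′ on the gene's strand, with capitals marking a motif match.
Gstm2 (chr3:107986371-107986670, - strand): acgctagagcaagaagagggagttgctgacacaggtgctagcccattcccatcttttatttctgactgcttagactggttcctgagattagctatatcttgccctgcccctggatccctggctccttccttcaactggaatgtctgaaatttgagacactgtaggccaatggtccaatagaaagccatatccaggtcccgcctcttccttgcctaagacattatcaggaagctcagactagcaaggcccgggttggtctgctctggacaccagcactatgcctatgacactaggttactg
Cyp8b1 (chr9:121916256-121916555, - strand): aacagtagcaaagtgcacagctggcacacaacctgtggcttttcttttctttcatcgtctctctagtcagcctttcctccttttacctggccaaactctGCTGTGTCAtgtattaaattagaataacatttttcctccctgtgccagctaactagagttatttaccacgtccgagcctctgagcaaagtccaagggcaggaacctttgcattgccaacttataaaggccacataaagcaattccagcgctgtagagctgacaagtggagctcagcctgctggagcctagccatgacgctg
Ugt1a7c (chr1:88094751-88095050, + strand): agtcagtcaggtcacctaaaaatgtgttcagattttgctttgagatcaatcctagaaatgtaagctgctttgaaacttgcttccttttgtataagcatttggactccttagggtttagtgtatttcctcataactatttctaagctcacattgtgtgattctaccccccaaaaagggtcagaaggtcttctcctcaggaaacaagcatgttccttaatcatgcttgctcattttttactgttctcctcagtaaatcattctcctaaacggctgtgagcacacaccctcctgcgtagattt
Ugt1a5 (chr1:88165762-88166061, + strand): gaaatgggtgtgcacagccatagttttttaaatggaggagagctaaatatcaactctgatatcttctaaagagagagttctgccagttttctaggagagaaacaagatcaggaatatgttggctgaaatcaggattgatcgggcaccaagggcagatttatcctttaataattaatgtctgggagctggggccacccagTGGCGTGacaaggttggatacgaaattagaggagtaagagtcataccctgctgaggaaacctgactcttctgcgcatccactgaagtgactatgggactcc
The motifs searched on both strands were the antioxidant response element TGACNNNGC, the xenobiotic response element TNGCGTG and the D-box TTANGTAA, bound by the clock output factor DBP. They were present in 12.4%, 5.07% and 2.32% of 32851 RefSeq windows of 300 bases. Of 61 such windows for 50 of the 69 member genes, 5 held the first, 3 the second and 2 the third. The Cyp8b1 window holds a match to the first on its other strand, the Ugt1a5 window holds 1 match to the second, and the Gstm2 and Ugt1a7c windows hold none of these letters.

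Among P450s of families 1 to 4, the 15 tested members split into 5 that rose and 7 that fell with 250 ppm 1,2-DCB. With 400 ppm 1,4-DCB, 9 rose and none fell. Of all liver probes 25.1% were called higher and 24.6% lower at 250 ppm, and 18% and 13.6% at 400 ppm. Cyp2c29, a known CAR target in mouse liver, read 9252, 14070 and 22090 CPM as lowest, median and highest of 9 controls and 40530, 47630 and 61590 CPM in 6 animals at 250 ppm. The animals at 400 ppm 1,4-DCB read 112200, 103600, 120400, 91860 and 94960 CPM, against 15280, 20410 and 29400 in 7 controls. Exposed and control animals did not overlap under either compound, with log2 changes of 1.76 ± 0.17 (SE, adjusted p = 1.48e-13) and 2.27 ± 0.19 (SE, adjusted p = 6.78e-15). This probe's counts were all multiples of 7, read here as a factor applied by the authors. Such a factor scales its level but not a ratio of its own values.

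Cyp2a4, a testosterone hydroxylase nearly identical in sequence to Cyp2a5, rose with log2 changes of 1.56 ± 0.22 (SE, adjusted p = 1.93e-08) and 1.29 ± 0.24 (SE, adjusted p = 2.43e-05). All 6 animals at 250 ppm, at 3002 to 7722 CPM, were above all 9 controls, at 1001 to 2911 CPM. Reads of Cyp2a4 and Cyp2a5 may be shared, so the source of this rise is uncertain between them. Cyp2d9, a P450 that is abundant in male mouse liver, changed by 0.69 ± 0.22 (SE, adjusted p = 0.00808) and 1.70 ± 0.25 (SE, adjusted p = 1.42e-07). Cyp2c65 was listed at 0 in all 9 controls and read 0.139 to 0.267 CPM in 5 of 6 animals at 250 ppm, so no fold is given, and DESeq2 did not call it (adjusted p = 0.0625). Cyp4a31, a fatty acid hydroxylase of low level here, rose from a control range of 0.156 to 1.69 to an exposed range of 1.9 to 5.88 CPM at 250 ppm, a log2 change of 2.08 ± 0.40 (SE, adjusted p = 1.26e-05).

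Cyp1a2 and Cyp4a12a were called at 400 ppm 1,4-DCB and not at 250 ppm 1,2-DCB. The 5 animals at 400 ppm read 463, 388, 395, 425 and 372 CPM of Cyp1a2, all above the 7 controls at 212 to 267, a log2 change of 0.82 ± 0.10 (SE, adjusted p = 1.07e-09). At 250 ppm 1,2-DCB the Cyp1a2 value was 0.10 ± 0.09 (SE, adjusted p = 0.346). Cyp4a12a, a fatty acid hydroxylase abundant in male mouse kidney, read 14.7, 18.2, 12.9, 11.7 and 8.27 CPM at 400 ppm and 1.21 to 3.12 in controls. Its log2 change was 2.81 ± 0.50 (SE, adjusted p = 7.66e-06), with no overlap of the groups, and 0.06 ± 0.53 (SE, adjusted p = 0.934) at 250 ppm 1,2-DCB.

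The P450s that fell at 250 ppm 1,2-DCB included Cyp2c38, Cyp2c39, Cyp2j5, Cyp3a41a, Cyp3a41b, Cyp3a44 and Cyp4a10. Cyp2c38 read 33.9, 65.9 and 103.1 CPM as lowest, median and highest of the controls and 8.14, 11.5 and 17.1 at 250 ppm, a log2 change of -2.49 ± 0.19 (SE, adjusted p = 1.01e-16). Cyp2c39, a retinoic acid hydroxylase, went from a control range of 648 to 999 to an exposed range of 336 to 483 CPM (-0.95 ± 0.10), and Cyp2j5, an arachidonic acid epoxygenase, from a control range of 173 to 298 to an exposed range of 73.2 to 128.3 CPM (-1.23 ± 0.16). No exposed animal reached a control in these 3 genes. At 400 ppm 1,4-DCB the same probes gave values of -0.31, -0.18 and -0.25, none of which passed the test.

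Cyp3a41a and Cyp3a41b, female-predominant steroid hydroxylases of mouse liver, were called in opposite directions at the highest concentrations. Cyp3a41b read 2308, 3641 and 4888 CPM in the 1,2-DCB controls and 1268, 1472 and 1607 at 250 ppm. It read 6370, 6038, 9111, 5233 and 6557 CPM at 400 ppm 1,4-DCB, against 2846, 3721 and 4086 in the controls of that compound. The animals at 250 ppm lay below all their controls and those at 400 ppm above all theirs, with log2 changes of -1.28 ± 0.14 (SE, adjusted p = 3.46e-11) and 0.92 ± 0.15 (SE, adjusted p = 1.60e-06). Cyp3a41a changed by -1.49 ± 0.20 (SE, adjusted p = 3.52e-09) and 0.57 ± 0.20 (SE, adjusted p = 0.0245), and its 400 ppm call ended, at an adjusted p of 0.0843, without animal 503. The 2 genes are near-identical copies, so their probes may share reads. Cyp3a44, a close relative, fell at 250 ppm from a control range of 5.63 to 30.4 to an exposed range of 2.41 to 7.36 CPM, with partial overlap.

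**Figure D2:**
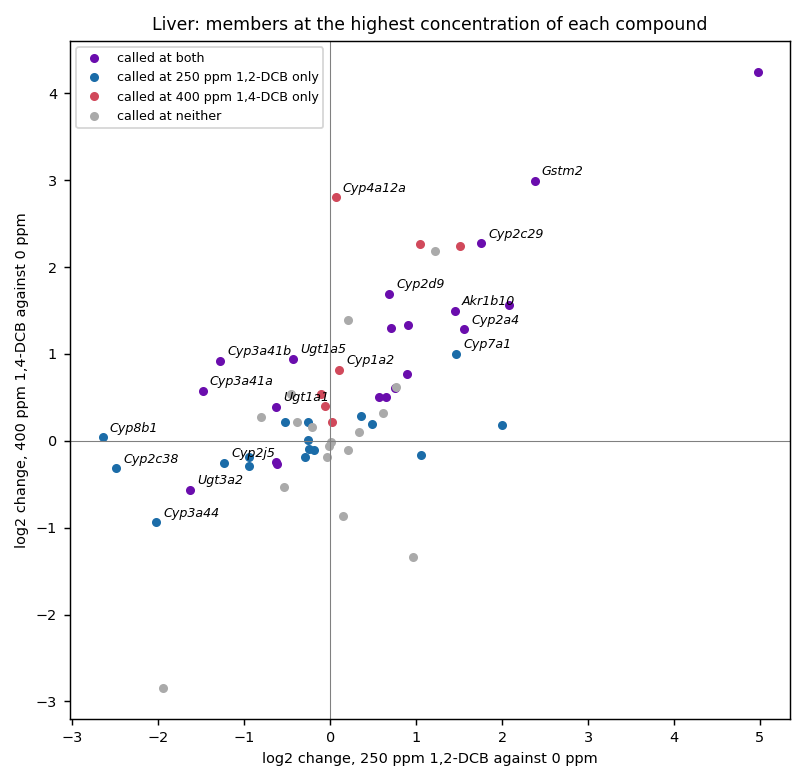
Log2 change of the 61 tested members in liver at 250 ppm 1,2-DCB (x axis) and at 400 ppm 1,4-DCB (y axis), each against its own 0 ppm animals, coloured by where the member was called. Gstm2 and Cyp2c29 lie high on both axes, Cyp8b1 and Cyp2c38 lie far left near 0 on the y axis, and Cyp3a41a, Cyp3a41b, Ugt1a1 and Ugt1a5 lie in the upper left.

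Among the P450s of bile acid, steroid and retinoid pathways, Cyp8b1 and Cyp7a1 moved apart at 250 ppm 1,2-DCB. Cyp8b1, the sterol hydroxylase needed for cholic acid, read 488, 646 and 769.6 CPM as lowest, median and highest of 9 controls and 70.6, 92.2 and 147.3 in 6 exposed animals. All exposed animals were far below all controls, a log2 change of -2.65 ± 0.17 (SE, adjusted p = 1.16e-19). The animals at 400 ppm 1,4-DCB read 964, 942, 802, 588 and 414 CPM, with 2 animals above and 1 below the control range of 561 to 885, and the value was 0.04 ± 0.17 (SE, adjusted p = 0.887). Cyp7a1, the rate-limiting enzyme of bile acid synthesis, read 16.4, 53.4 and 119.5 CPM in controls and 86.2, 151.6 and 199 at 250 ppm. Of the 6 exposed animals, 5 were above all controls, and the log2 change was 1.47 ± 0.36 (SE, adjusted p = 6.08e-04). At 400 ppm the Cyp7a1 value was 1.00 ± 0.41 (SE, adjusted p = 0.0513). Cyp26b1, which breaks down retinoic acid, was called higher at 250 ppm from levels under 1 CPM, at 0.385 to 4.9 CPM in exposed animals, and not without animal 501 (adjusted p = 0.1).

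Of the glucuronosyltransferases, 4 of 11 tested rose and 3 fell at 250 ppm 1,2-DCB, beside 25.1% and 24.6% of all probes. At 400 ppm 1,4-DCB, 6 rose and 1 fell, beside 18% and 13.6% of all probes. Ugt1a7c read 122.2 to 209 CPM in controls and 225 to 307 at 250 ppm. The animals given 400 ppm 1,4-DCB read 284, 316, 279.7, 231 and 249, against 128.8 to 218 in controls. Neither pair of groups overlapped, with log2 changes of 0.90 ± 0.12 (SE, adjusted p = 2.55e-09) and 0.77 ± 0.13 (SE, adjusted p = 2.61e-06). Ugt1a6b, which conjugates phenols, rose by 0.65 and 0.51 on the log2 scale, also without overlap. Ugt1a1, the bilirubin glucuronosyltransferase, fell at 250 ppm to 211 to 321 CPM, below all controls at 323 to 489 (-0.63 ± 0.10 SE, adjusted p = 2.25e-07), and rose at 400 ppm (0.40 ± 0.11 SE, adjusted p = 0.00267). Ugt1a5 went the same ways, with -0.43 ± 0.16 (SE, adjusted p = 0.0194) and 0.94 ± 0.17 (SE, adjusted p = 1.44e-05). Its fall at 250 ppm had an adjusted p of 0.0686 without animal 506R, and since Ugt1a forms share their last exons, their probes may share reads.

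Ugt3a2, a glycosyltransferase whose human form uses UDP-xylose, fell under both compounds. It read 2150, 2760 and 3256 CPM in controls and 648, 844 and 1174 at 250 ppm, with no overlap and a log2 change of -1.63 ± 0.11 (SE, adjusted p = 1.75e-18). It read 1939, 1937, 2158, 1475 and 1773 CPM at 400 ppm 1,4-DCB, with 4 of 5 animals below all controls, and a log2 change of -0.56 ± 0.12 (SE, adjusted p = 1.50e-04). Ugt2b15 rose by 0.57 and 0.50, the latter not without animal 502 (adjusted p = 0.0715), while Ugt2b35 was called at 250 ppm only (0.35) and Ugt2b36 at 400 ppm only (0.40).

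Gstm2 had the smallest adjusted p of the members that rose under either compound. It read 153.2, 173 and 205 CPM as lowest, median and highest of 9 controls and 692, 932 and 1120 at 250 ppm 1,2-DCB. The 5 animals at 400 ppm 1,4-DCB read 1953, 1945, 2302, 1430 and 1714 CPM, against 166, 196 and 355 in controls. No exposed animal overlapped a control, with log2 changes of 2.38 ± 0.16 (SE, adjusted p = 1.38e-18) and 2.99 ± 0.18 (SE, adjusted p = 7.77e-20). Gstt3, a theta class form, rose by 0.71 and 1.297. Gstz1, which isomerises maleylacetoacetate in tyrosine breakdown, fell at 250 ppm (-0.29 ± 0.08 SE, adjusted p = 9.22e-04) and had a value of -0.18 at 400 ppm, which did not pass the test.

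The sulfotransferases gave few calls. Sult1b1, which sulfates phenols and thyroid hormone, read 109.9, 129.6 and 162 CPM in controls and 81.6, 87.9 and 107.3 at 250 ppm 1,2-DCB, a log2 change of -0.52 ± 0.08 (SE, adjusted p = 2.52e-07) with no overlap. Its value at 400 ppm 1,4-DCB was 0.22 ± 0.09 (SE, adjusted p = 0.0514). Sult2a5 and Sult2a3, hydroxysteroid sulfotransferases of one close-knit family that may share reads, were called higher at 400 ppm. Animal 505 read 287 and 12.7 CPM of these 2 genes, and the other 4 animals read 29.6 to 88.8 CPM of Sult2a5 and 0.0307 to 1.50 CPM of Sult2a3, against 5.32 to 54.7 and 0.228 to 1.64 in controls. Without animal 505 neither was called (adjusted p of 0.192 and 0.925). Nat1 and Nat2, the N-acetyltransferases, were not called in any contrast of any tissue.

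Of 8 tested aldehyde dehydrogenase probes, 5 were called lower and 1 higher at 250 ppm 1,2-DCB, beside 24.6% and 25.1% of all probes. The lower calls of Aldh8a1 and Aldh9a1 each ended with 1 library left out, at adjusted p up to 0.104 and 0.16. Aldh2, which clears acetaldehyde, went from a control range of 410 to 617 to an exposed range of 311 to 394 CPM (-0.63 ± 0.08 SE, adjusted p = 1.54e-09), and Aldh6a1 from a control range of 2206 to 3114 to an exposed range of 1435 to 2137 CPM (-0.62 ± 0.09 SE, adjusted p = 3.69e-08). Neither gene's groups overlapped at 250 ppm. Both fell by less at 400 ppm 1,4-DCB, -0.24 and -0.26, and leaving out 1 exposed animal ended each of those calls, at adjusted p of 0.12 and 0.109. Aldh1a1, which oxidises retinal, rose under both compounds, at 23.5 to 54 and 44.3 to 134.3 CPM in controls and at 250 ppm, and at 32.8 to 62.8 and 100.7 to 125.5 CPM in controls and at 400 ppm. Its log2 changes were 0.90 ± 0.16 (SE, adjusted p = 3.80e-06) and 1.33 ± 0.18 (SE, adjusted p = 1.88e-08).

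Of the other redox enzymes, Akr1b10 and Fmo5 rose under both compounds in liver. Akr1b10, an aldehyde reductase, read 3.63, 5.96 and 11.2 CPM in controls and 16.3, 18.8 and 20.3 at 250 ppm, with no overlap. Its log2 changes were 1.45 ± 0.18 (SE, adjusted p = 8.36e-10) and 1.50 ± 0.20 (SE, adjusted p = 1.75e-08). Fmo5, a flavin monooxygenase, changed by 0.75 ± 0.14 (SE, adjusted p = 1.53e-05) and 0.60 ± 0.16 (SE, adjusted p = 0.00263). Adh1, the main ethanol-oxidising dehydrogenase, rose at 250 ppm (0.48 ± 0.09 SE, adjusted p = 6.83e-06), and Adh5, which oxidises the glutathione adduct of formaldehyde, at 400 ppm (0.21 ± 0.07 SE, adjusted p = 0.0131), though not without animal 504 (adjusted p = 0.0592).

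Other cell signals moved with these liver groups. The summed CPM of 9 hepatocyte markers was 147900 to 195800 at 250 ppm against 228900 to 367400 in controls, and 236900 to 272000 at 400 ppm against 284700 to 326000. None of those markers was at 0. The summed level of 2 macrophage markers was 66.2 to 270.8 CPM at 250 ppm against 27.1 to 87.2 in controls, and 6 red cell markers, 1 of them at 0 in the exposed group, summed to 237 to 3504 CPM against 5293 to 19650. Under 1,4-DCB, 4 neutrophil markers, none at 0, summed to 206 to 659 CPM at 400 ppm against 3.74 to 34.3 in its controls, while the sum in the 1,2-DCB controls reached 227.6. Exposed animals overlapped the controls of the same compound in the macrophage sum and in none of these others. The part of these signals in the member changes was not tested.

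**Figure D3:**
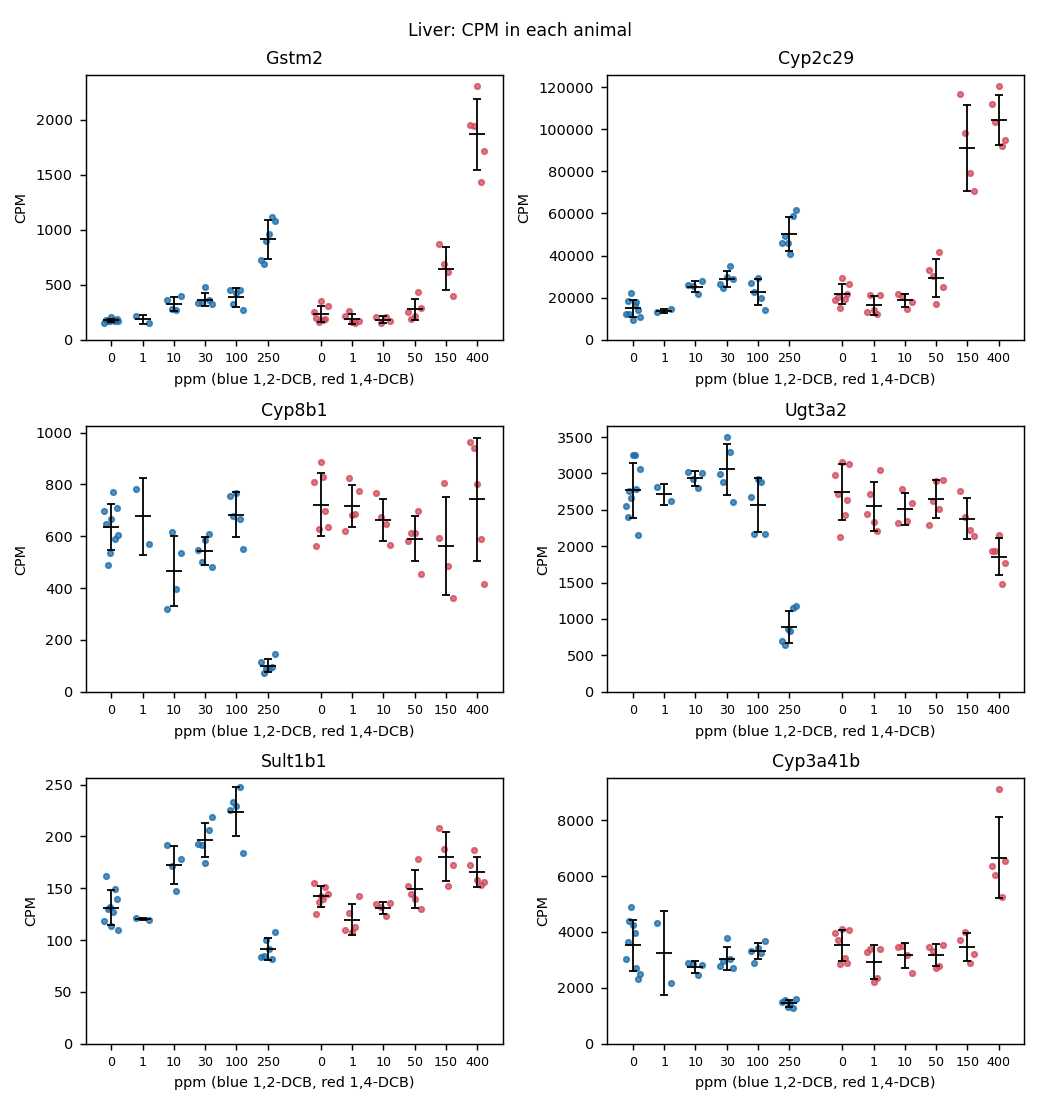
CPM of 6 members in liver in every animal by concentration (points), with the mean and SD of each group (bars). Gstm2 and Cyp2c29 climb under both compounds, Cyp8b1 and Ugt3a2 drop at 250 ppm 1,2-DCB, Sult1b1 rises to 100 ppm and drops at 250 ppm, and Cyp3a41b is low at 250 ppm 1,2-DCB and high at 400 ppm 1,4-DCB.

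Along the concentrations of 1,2-DCB, whose 5 contrasts share the same 9 control animals, liver members were called from 10 ppm. At 10 ppm, 12 of 61 rose and 1 fell, and 2.65% of all probes were called higher and 2.69% lower (5.34% together). At 30 ppm 15 rose and 1 fell, against 6.11% and 5.57% of all probes (11.7% together), and at 100 ppm 16 rose and none fell, against 12% and 6.73% (18.8% together). The median member change at these concentrations was 0.20, 0.29 and 0.17, and that of all probes -0.03, -0.04 and -0.01. At 1 ppm, with 2 exposed animals, edgeR and DESeq2 called no member, and 1 had an unadjusted p under 0.05 in edgeR.

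Gstm2 read 362, 279.6, 270 and 398 CPM at 10 ppm, 335, 335, 475, 363 and 321 at 30 ppm and 455, 328, 424, 456 and 268 at 100 ppm. Every one of these animals was above the 9 controls, and the log2 changes were 0.90 ± 0.18, 1.06 ± 0.17 and 1.14 ± 0.17. Cyp2c29 rose by 0.76, 0.95 and 0.61, and Cyp7a1 by 1.53, 1.55 and 1.305. Ugt1a7c rose by 0.43, 0.52 and 0.56, and Ugt1a6b by 0.41, 0.61 and 0.47. Some of these calls ended with 1 animal left out. The adjusted p at 10 ppm was 0.0715 for Cyp7a1 without animal 202, and 0.252 for Ugt1a7c and 0.342 for Ugt1a6b without animal 201. At 100 ppm it was 0.0548 for Cyp2c29 without animal 403. Leaving out 1 library ended the 10 ppm calls of Ugt1a7c and Ugt1a6b in 8 and 7 of 13 fits.

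Sult1b1 did not keep its direction along the series. It read 192, 172, 147.7 and 178 CPM at 10 ppm, 192, 192, 174, 206 and 219 at 30 ppm and 226, 233, 229, 248 and 184 at 100 ppm. These animals lay above the control median of 129.6 CPM, and those at 30 and 100 ppm above every control, whereas all animals at 250 ppm lay below every control. The log2 changes were 0.39 ± 0.09, 0.58 ± 0.08 and 0.77 ± 0.08, then -0.52 ± 0.08. Aldh7a1, of lysine breakdown, rose by 0.34, 0.32 and 0.31 and then fell (-0.26). Aldh6a1, Aldh8a1 and Akr7a5 were likewise called higher at 1 or more of the lower concentrations and lower at 250 ppm. The 250 ppm calls of Aldh8a1 and Akr7a5 ended without animal 503, at adjusted p of 0.104 and 0.076, and the 30 ppm call of Aldh6a1 without animal 304, at 0.159. The 30 ppm call of Aldh8a1 ended without animal 301, at 0.0772. The Akr7a5 calls at 10 and 100 ppm ended without animals 204 and 405, at 0.0921 and 0.128. Leaving out 1 library ended that 100 ppm call in 9 of 14 fits.

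Some members were called only below the highest concentration in the 1,2-DCB liver series. Adh5 rose by 0.24, 0.30 and 0.42 and was at 0.02 at 250 ppm. Ugt2b36 rose by 0.38, 0.44 and 0.25 and did not pass the test at 250 ppm. Cyp4a12a was called at 10 and 100 ppm (1.86 and 2.80), and Cyp1a2 at 100 ppm (0.45). The 10 ppm calls of Adh5 and Cyp4a12a ended without animal 202, at adjusted p of 0.105 and 0.0772, and the 100 ppm call of Ugt2b36 without animal 402, at 0.191. Cyp3a16, a steroid hydroxylase of young mouse liver, was the lower call at 10 and 30 ppm, at 0 to 0.316 and 0 to 0.299 CPM against 0.0562 to 15.2 in controls. Its 10 ppm call ended in 5 of 13 fits with 1 library left out. The adjusted p was highest, 0.124, without control animal 4 at 15.2 CPM.

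A clock gene moved with the lower concentrations. Dbp, an output gene of the circadian clock, read 168 to 407 CPM at 10 ppm and 90.9 to 422 at 30 ppm, against 3.92 to 95.2 in controls. With Dbp as a covariate 4 members were called at 10 ppm in place of 13, and the Gstm2 value there was 0.63 with an adjusted p of 0.0911. The share of all probes called in that fit is not given here, so the drop cannot be read as particular to the members. At 10 ppm the count of called members was 7 with the 1,2-DCB libraries alone and 0 with all deposited libraries. The lowest count with 1 library left out was 8.

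Under 1,4-DCB, whose 5 contrasts share 7 control livers, members were called from 150 ppm. At 150 ppm 12 of 61 rose and none fell, and 5.07% of all probes were called higher and 0.884% lower (5.96% together). Cyp2c29 read 116700, 97980, 79150 and 70680 CPM and Gstm2 874, 689, 615 and 401 CPM, above all controls, with log2 changes of 2.07 ± 0.19 (SE, adjusted p = 2.75e-12) and 1.46 ± 0.19 (SE, adjusted p = 6.68e-08). Cyp1a2 (0.73), Ugt1a1 (0.55), Cyp2a4 (1.15), Ugt1a7c (0.60) and Sult1b1 (0.34) also rose, the last not without animal 401 (adjusted p = 0.168). At 1, 10 and 50 ppm edgeR and DESeq2 called no member, and 12, 2 and 7 members had an unadjusted p under 0.05 in edgeR. Of all probes 0.73% were called higher and 0.0384% lower at 50 ppm (0.769% together).

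**Figure D4:**
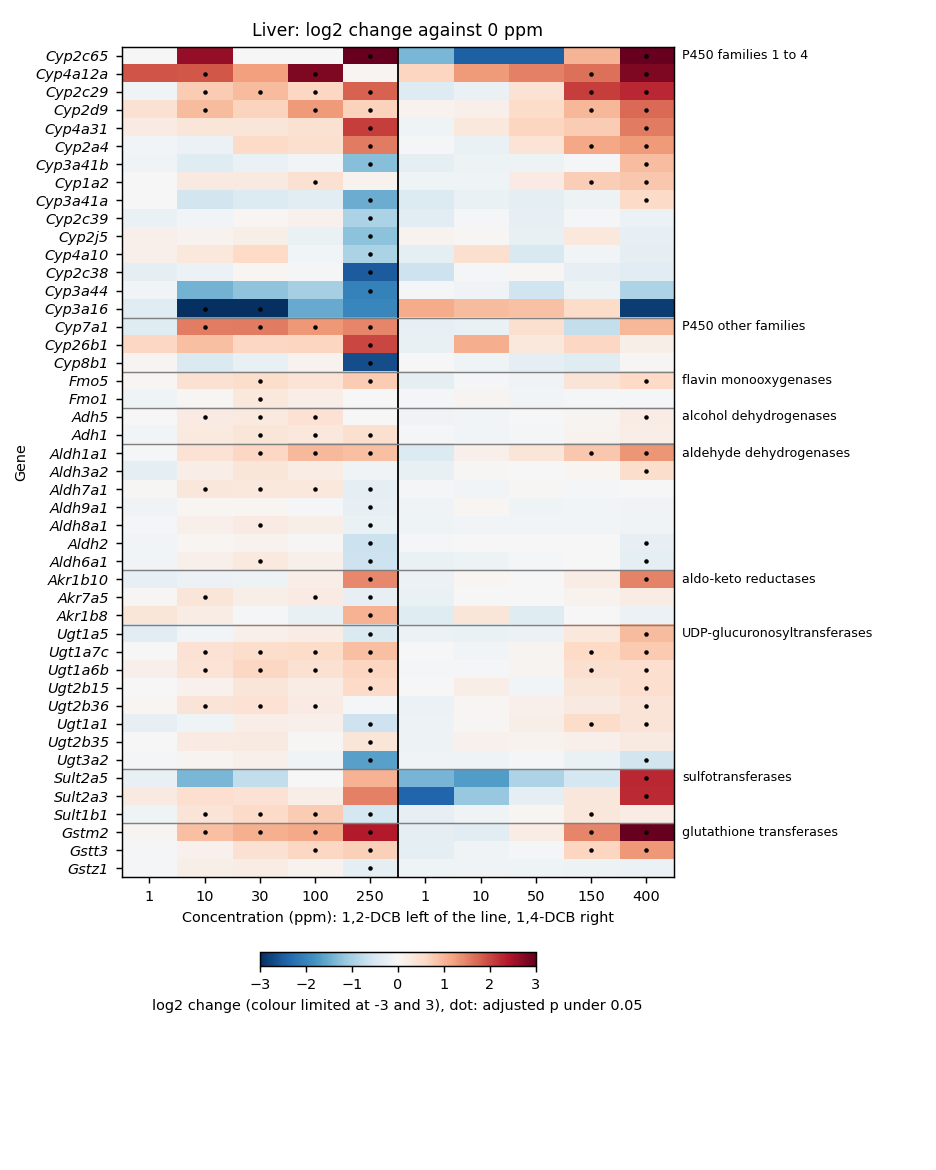
Log2 change in liver of the members called in at least 1 contrast (rows, grouped by enzyme class) at each concentration (columns), in colour limited at -3 and 3, with dots for an adjusted p under 0.05. Lower calls fill the 250 ppm 1,2-DCB column, where 19 members fell, and the 400 ppm 1,4-DCB column holds 24 higher calls.

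The isomers were compared at the concentrations they share, 1 and 10 ppm, as the change under 1,4-DCB minus the change under 1,2-DCB. Over 5 tissues and 2 concentrations this made 460 comparisons of a member, with p adjusted over all probes of each tissue. edgeR called 3, all in liver at 10 ppm, where 1.58% of all probes were called, with 51 unadjusted p under 0.05 in all, and DESeq2 called 6. Gstm2 read 209, 148.3, 208 and 170.1 CPM at 10 ppm 1,4-DCB, with 3 of 4 animals inside the control range and 1 below it, against 362, 279.6, 270 and 398 at 10 ppm 1,2-DCB, all above the controls. The difference was -1.25 ± 0.27 (SE, adjusted p = 0.00537), with a 95% interval from the SE of -1.78 to -0.72.

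Sult1b1 and Aldh7a1 differed between isomers by less. Sult1b1 read at most 135.6 CPM at 10 ppm 1,4-DCB and at least 147.7 CPM at 10 ppm 1,2-DCB, and its difference was -0.51 ± 0.13 (SE, adjusted p = 0.025), with an interval of -0.77 to -0.25. Aldh7a1 differed by -0.43 ± 0.11 (SE, adjusted p = 0.0253), with an interval of -0.65 to -0.21. All animals at 10 ppm 1,2-DCB exceeded all animals at 10 ppm 1,4-DCB in these 3 genes. Cyp2c29 had a difference of -0.97 with an adjusted p of 0.052, and an interval of -1.51 to -0.43. For 221 of the 460 comparisons the interval lay within 1 log2 unit of 0, and the others leave larger differences possible. Dbp in liver read 4.94 to 69.7 CPM at 10 ppm 1,4-DCB against 168 to 407 at 10 ppm 1,2-DCB, and its part in these differences was not tested.

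In lung, members rose more often than they fell at 250 ppm 1,2-DCB, and a single one was called under 1,4-DCB. At 250 ppm 13 of 40 tested members rose and 4 fell, and 17.6% of all 2756 probes were called higher and 15% lower (32.6% together). The median change was 0.11 for members and -0.02 for all probes. At 10, 30 and 100 ppm 1, 4 and 5 members rose and none fell. Of all probes 0.943%, 2.29% and 3.74% were called higher and 0.943%, 2.29% and 2.79% lower (1.89%, 4.57% and 6.53% together). Under 1,4-DCB the single call at 50, 150 and 400 ppm was Ugt1a7c each time, where 1.2%, 0.472% and 2.61% of all probes were called. At 1 ppm of either compound and 10 ppm 1,4-DCB edgeR and DESeq2 called none, with 6, 1 and 2 unadjusted p under 0.05 in edgeR. The contrasts of a compound share its 10 control lungs.

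Ugt1a7c was the member with the smallest adjusted p in lung. It read 83.2, 108.2 and 156.1 CPM as lowest, median and highest of 10 controls, 164, 168, 201, 186 and 215 at 30 ppm, 197, 223, 193, 256 and 196 at 100 ppm and 161, 272 and 383 at 250 ppm 1,2-DCB. Every animal from 30 ppm upward was above all controls, with log2 changes of 0.70 ± 0.12 (SE, adjusted p = 5.96e-05), 0.89 ± 0.12 (SE, adjusted p = 3.48e-07) and 1.21 ± 0.12 (SE, adjusted p = 4.88e-13). Under 1,4-DCB it read 164, 179, 135.4, 169 and 142.8 CPM at 50 ppm, 151.6, 164, 212, 143.5 and 125.4 at 150 ppm and 129.1, 174, 159.3, 176 and 158.9 at 400 ppm, against 76, 101.2 and 114.8 in controls. Again no exposed animal overlapped a control, and the log2 changes were 0.64 ± 0.12 (SE, adjusted p = 0.00102), 0.65 ± 0.12 (SE, adjusted p = 8.80e-04) and 0.66 ± 0.12 (SE, adjusted p = 2.91e-04). The values at these 3 concentrations lay within 0.02 of each other.

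**Figure D5:**
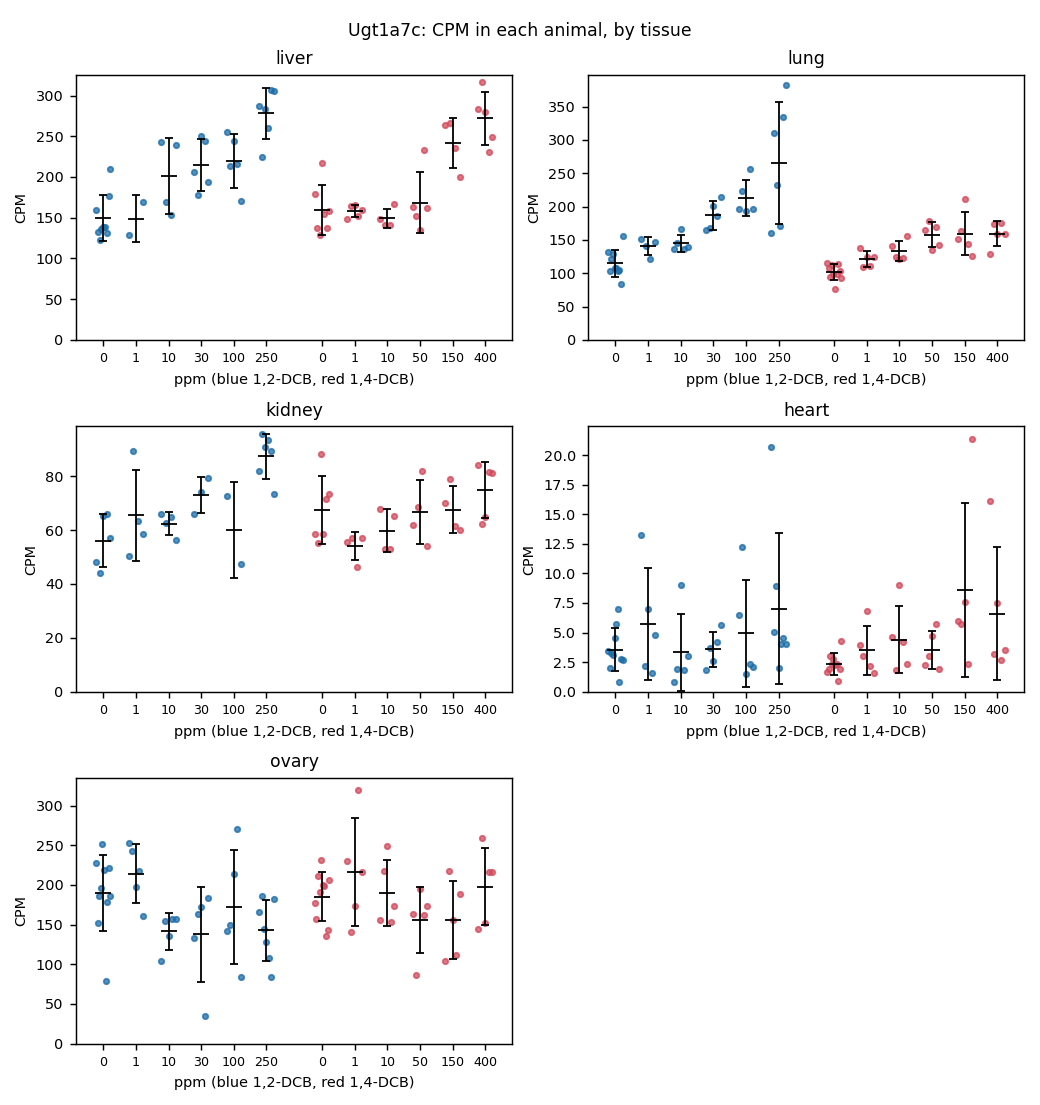
CPM of Ugt1a7c in every animal by tissue and concentration (points), with the mean and SD of each group (bars). In lung every animal at 50 ppm 1,4-DCB and above or 30 ppm 1,2-DCB and above exceeds its controls, and in heart 4 of 5 animals at 150 ppm 1,4-DCB exceed their controls, the highest at 21.4 CPM.

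Of the other lung conjugation enzymes, Ugt1a6b rose from a control range of 1.04 to 2.94 to an exposed range of 2.73 to 11.1 CPM at 250 ppm (1.66 ± 0.29 SE, adjusted p = 4.21e-06). Ugt1a5 (0.69) and Ugt1a1 (1.01) rose too, the latter not without animal 507 (adjusted p = 0.0851), and for Ugt1a5 4 of 6 exposed animals were above all controls and 2 below. No sulfotransferase or glutathione transferase was called in lung. The Gstm2 value there was 0.04 ± 0.13 (SE, adjusted p = 0.852).

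Among lung oxidation enzymes, Cyp2a4 was the earliest call. It read 49, 49.6, 92.8, 57.4 and 68.8 CPM at 10 ppm, all above the controls at 10.4 to 41.8, 72.3, 35.7, 99.6, 47.5 and 83 at 30 ppm and 35.3, 96 and 238 as lowest, median and highest at 250 ppm. The log2 changes at 10, 30, 100 and 250 ppm were 1.50 ± 0.40, 1.59 ± 0.40, 2.07 ± 0.40 and 2.19 ± 0.39. With Dbp as a covariate the adjusted p at 10, 30 and 100 ppm was 0.904, 0.691 and 0.0749, and the 10 ppm call ended without animal 203 (adjusted p = 0.134), while Dbp itself read 402 to 536 CPM at 10 ppm against 17.3 to 151.6 in controls. Reads of Cyp2a5 may count here, as in liver.

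Other lung oxidation and reduction enzymes were called in both directions at 250 ppm. Fmo1, a flavin monooxygenase, fell by a log2 change of -0.63 ± 0.13 (SE, adjusted p = 9.32e-05), with 2 of 6 animals below all controls. Akr1b8, an aldehyde reductase that is the mouse counterpart of human AKR1B10, rose on both of its probes, by 0.98 and 1.11, and the first went from a control range of 23.9 to 50.2 to an exposed range of 54.3 to 86.6 CPM without overlap. Adh5 (0.33) and Aldh7a1 (0.33) rose in all 6 animals above every control.

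Some lung calls rested on few animals. Cyp26b1 was at 1.43 to 29.2 CPM against 0 to 1.44 in controls, and without animal 501 at 29.2 CPM its log2 value was 1.52 with an adjusted p of 0.0751. Animals 501 and 506R had the lowest Cyp2f2, a marker of club cells, and the lowest alpha globin of their group. Without both, 14 members were called at 250 ppm in place of 17, and 597 of all probes in place of 898. Adh1, Aldh9a1 and Cyp26b1 did not pass in that fit. Red cell markers in lung summed to 12450 to 237900 CPM at 250 ppm against 224800 to 556900 in controls, and their part in these changes was not tested.

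In kidney, 12 of 58 tested members rose and 1 fell at 250 ppm 1,2-DCB, where 6.78% of all 2729 probes were called higher and 4.95% lower (11.7% together). The median change was 0.30 for members and -0.02 for all probes. Cyp4a10, a fatty acid hydroxylase and PPARA target, read 299, 273, 416, 423 and 320.3 CPM in 5 controls and 657, 961 and 1116 as lowest, median and highest of 6 exposed animals. All exposed animals were above all controls, a log2 change of 1.43 ± 0.22 (SE, adjusted p = 8.56e-06). In liver Cyp4a10 fell at the same concentration (-0.95 ± 0.31 SE, adjusted p = 0.00826).

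The other kidney rises were smaller. Aldh7a1 read 748, 647, 704, 744 and 623 CPM in controls and 869.5 to 1041 at 250 ppm (0.48 ± 0.09 SE, adjusted p = 9.89e-05). Ugt1a7c read 48, 44, 65.1, 66 and 57.1 in controls and 73.2 to 95.6 at 250 ppm (0.64 ± 0.14 SE, adjusted p = 7.40e-04). Neither gene's groups overlapped, nor did those of Ugt1a5 (0.52), Gstz1 (0.41), Aldh9a1 (0.43), Sult1b1 (0.58) or Adh5 (0.21). Cyp1b1, which oxidises oestrogens and aromatic hydrocarbons, was the member that fell, from 8.3, 5.04, 2.57, 2.58 and 5.46 CPM in controls to 0.854 to 2.99 (-1.27 ± 0.32 SE, adjusted p = 0.00574).

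Cyp2c29, abundant in liver, was called higher in kidney at 250 ppm, at 36.1, 59.8, 1.22, 17.1, 51.3 and 19.1 CPM in animals 503, 504, 505, 506R, 507 and 508, against 2.64, 8.55, 1.2, 6.85 and 1.93 in controls. The hepatocyte gene Mup19 read 45.5, 0.712, 0.262, 18.96, 0.942 and 24.1 CPM in those 6 animals, in the same order, and 1.28 to 14.4 CPM in controls. Animal 504, low in Mup19, was the highest of the exposed animals in 2 other liver enzymes, Cyp2c39 at 3.92 CPM and Cyp7a1 at 1.99 CPM. The Cyp2c29 call ended without control animal 8 (adjusted p = 0.0543). The sum of 9 hepatocyte markers was 2046 to 2876 CPM at 250 ppm against 1498 to 1802 in controls, with none at 0. Of that sum Apoc3 alone read 1366 to 2000 CPM against 442.6 to 723.3 in controls, while Apoa1, Mup3 and Mup19 overlapped the controls. The part of liver RNA in the kidney values was not tested. Without animals 503, 506R and 508, 9 members were called in place of 13, and 203 of all probes in place of 320. With Dbp as a covariate 4 members were called, and the share of all probes in that fit is not given here. Dbp read 489 to 698 CPM at 250 ppm against 32.5 to 229 in controls.

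At 400 ppm 1,4-DCB the kidney gave a single call, where 1.03% of all probes were called. Cyp4a12a read 4.34, 2.06, 4.47, 3.45 and 4.92 CPM, all above the 6 controls at 0.385 to 1.11, a log2 change of 2.23 ± 0.49 (SE, adjusted p = 0.00969). Cyp4a12a was also called higher at 250 ppm 1,2-DCB (1.52 ± 0.50 SE, adjusted p = 0.036), though not without control animal 2 (adjusted p = 0.122). At the lower concentrations, where the 30 and 100 ppm 1,2-DCB groups held only 3 and 2 animals, edgeR and DESeq2 called no member in kidney, and 23 tests under 1,2-DCB and 36 under 1,4-DCB had an unadjusted p under 0.05 in edgeR, summed over 4 concentrations. With all deposited libraries, which adds those marked for possible tissue contamination, there were 37 member calls under 1,2-DCB. That is a sum over the 4 concentrations, in which 1 member can count more than once. The share of all probes called in that fit is not given here.

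In heart, where 29 members were tested, the calls moved with 3 libraries. At 150 ppm 1,4-DCB 8 members rose and 1 fell, and 15.3% of all 2454 probes were called higher and 11.9% lower (27.2% together). Ugt1a7c read 5.97, 5.73, 7.61, 2.31 and 21.4 CPM in animals 401 to 405, against 0.888 to 4.31 in 10 controls. Adh1 read 46.5, 45.3, 71.8, 29.7 and 216 CPM in the same order, against 22.8 to 43. Animal 405 was the highest in both, and its summed level of 3 cardiomyocyte markers was 53220 CPM, against 179300 to 227600 in the other 4 animals and 250200 to 301100 in controls. Without it 0 members were called, and 45 probes of all.

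At 400 ppm 1,4-DCB 3 members rose and 2 fell in heart, against 8.84% and 4.12% of all probes (13% together). Akr1b8 read 19.04, 6.32, 12.6, 8.17 and 5.87 CPM in animals 501 to 505 and 4 to 6.07 in controls, a log2 change of 1.06 ± 0.33 (SE, adjusted p = 0.0214). Animals 501 and 503 were the highest, and their cardiomyocyte marker sums were 152800 and 163400 CPM, against 241400 to 275000 in the other 3. Without those 2 animals edgeR called no member, and 11 of all probes in place of 318. The Akr1b8 value was then 0.43 with an adjusted p of 0.771. At 250 ppm 1,2-DCB, Akr1b10 fell (-0.34 ± 0.08 SE, adjusted p = 0.00188) and Cyp26b1 was called higher at 0.137 to 3.8 CPM, not without animal 501 (adjusted p = 0.268), where 8.88% of all probes were called. Below 150 ppm 1,4-DCB and 250 ppm 1,2-DCB no heart member was called by edgeR or DESeq2, with 4 unadjusted p under 0.05 in all under 1,2-DCB and 1, 3 and 2 at 1, 10 and 50 ppm 1,4-DCB in edgeR.

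In ovary, members fell at 250 ppm 1,2-DCB and none rose. Of 42 tested, 7 fell, and 7.7% of all 2713 probes were called lower and 15.9% in either direction. The median change was -0.20 for members and -0.03 for all probes. Adh1 read 908, 1523 and 3673 CPM as lowest, median and highest of 10 controls and 378, 447 and 592 in 7 exposed animals. The groups did not overlap, and the log2 change was -1.98 ± 0.32 (SE, adjusted p = 3.82e-05). Aldh9a1, of carnitine synthesis, fell without overlap, from a control range of 46.8 to 57.3 to an exposed range of 32.9 to 44.7 CPM (-0.43 ± 0.10 SE, adjusted p = 0.00246). Aldh1a1 fell from a control range of 44.1 to 88 to an exposed range of 29.5 to 56.9 CPM (-0.81 ± 0.17 SE, adjusted p = 8.08e-04), with 6 of 7 animals below all controls.

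Ugt1a1 (-1.49 ± 0.44 SE, adjusted p = 0.0138), Gstm2 (-0.42 ± 0.13 SE, adjusted p = 0.0197) and Akr1b10 (-0.35 ± 0.13 SE, adjusted p = 0.0481) also fell in ovary, and in each some exposed animals lay within the control range. Without animal 505 the Gstm2 value was -0.38 with an adjusted p of 0.0569, and without control animal 5 that of Akr1b10 was 0.11. Cyp11b1, the steroid hydroxylase of cortisol and corticosterone synthesis known from the adrenal cortex, was called lower. Control animals 2 and 8 read 28.6 and 50.8 CPM, the other 8 controls read 0 to 3.86 CPM and the exposed animals 0 to 1.61 CPM. Without control 8 alone the adjusted p was 0.087. Those 2 controls also had the highest Adh1 of the group, 3673 and 3544 CPM. Without them 6 members were called, Adh1 among them at -1.57, and the Cyp11b1 value was -1.24 with an adjusted p of 0.593. Of all probes 432 were called both with and without those controls. With Dbp as a covariate 2 members were called, and the share of all probes in that fit is not given here. Dbp read 243 to 494 CPM at 250 ppm against 86.4 to 272 in controls.

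At 400 ppm 1,4-DCB no ovary member was called by edgeR or DESeq2, and 5 had an unadjusted p under 0.05 in edgeR. Over the 4 lower concentrations edgeR called none, with 32 unadjusted p under 0.05 for 1,2-DCB and 11 for 1,4-DCB. DESeq2 made 5 and 0 calls, summed over those concentrations.

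The liver response was set against that of lung and kidney as the liver change minus the other tissue's change. The tissues came only in part from the same animals, since the libraries used differ, and the values are from the fit without the animal as a block unless stated. At 250 ppm 1,2-DCB 17 of 63 members differed between liver and lung, where 38.6% of all 2892 probes did, and at 400 ppm 1,4-DCB 11 of 63 (24.6% of all probes). Gstm2 had the smallest adjusted p in both, with differences of 2.11 ± 0.22 and 2.51 ± 0.24 (SE). Aldh7a1 (-0.82 ± 0.10) and Ugt1a1 (-1.88 ± 0.28), which fell in liver and rose in lung at 250 ppm, differed too. Ugt1a7c rose in both tissues, and its liver minus lung difference at 250 ppm was -0.54 ± 0.18 (SE, adjusted p = 0.0111). Both tissues were scaled together in this fit, so a difference need not equal the gap between the changes fitted in each tissue. For Ugt1a7c those changes, given above, lay closer together than 0.54, so a larger rise in lung is uncertain.

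Against kidney, 25 of 65 members differed at 250 ppm 1,2-DCB (31.8% of 2829 probes) and 11 at 400 ppm 1,4-DCB (15.5%). At 250 ppm Cyp4a10 differed by -2.40 ± 0.41 (SE, adjusted p = 1.06e-06) and by -3.12 with the animal as a block, Sult1b1 by -1.11 ± 0.17 and Ugt3a2 by -1.61 ± 0.18. Ugt3a2 is itself expressed in kidney, at a median of 11700 CPM over 11 controls. At 400 ppm Gstm2 differed by 3.16 ± 0.30 and Ugt1a7c by 0.63 ± 0.19.

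Across all tissues, 51 of 73 members were called in at least 1 of 50 contrasts. The matching share of all probes was not counted, and 49.8% of liver probes were called at 250 ppm 1,2-DCB alone. Ugt1a7c was called in the most, 15, always higher and in liver, lung, kidney and heart. Its heart calls ended without animal 405 at 150 ppm (adjusted p = 0.14) and without animals 501 and 503 at 400 ppm (0.876). Its liver call at 10 ppm 1,2-DCB ended without animal 201 (0.252), and its kidney call with Dbp as a covariate (0.0836). Of the 22 members never called, 5 passed the filter in no tissue: a second Adh1 probe, Cyp4f37, Cyp11b2, Sult2a4 and Sult2a6. The others included Gstm5 and both Gstm7 probes, Cyp11a1, Cyp17a1 and Cyp19a1 of steroid synthesis, Ugt1a2, Ugt1a9, Ugt1a10 and Ugt2b5.

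Related genes outside the members were counted in liver. There 25.1% of all probes were called higher and 24.6% lower at 250 ppm 1,2-DCB, and 18% and 13.6% at 400 ppm 1,4-DCB. Of 26 probes for other metabolising and cofactor enzymes, 11 rose and 6 fell at 250 ppm 1,2-DCB and 16 rose and 2 fell at 400 ppm 1,4-DCB. Of 17 tested drug transporter probes, 5 rose and 7 fell, and 4 rose and 2 fell. Of 15 tested probes for xenobiotic receptors and regulators, 3 rose and 6 fell, and 2 rose and 4 fell, with Nr1i3, which encodes CAR, lower on both of its probes at 250 ppm (-1.58 and -1.53) and at 400 ppm (-1.13 and -1.09). Of the 18 probes for the 17 enzymes set aside, all tested in liver, 10 rose and 6 fell at 250 ppm and 13 rose and 1 fell at 400 ppm.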

How the data were processed

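The deposited file holds whole-number counts per probe that the authors labelled as adjusted for attenuation. Reads were aligned with Bowtie 1.3.1, per the submitters' processing notes, and other steps are not given in the sources used here. From the values, 59 probes, 4 of them members (Cyp2c29, Cyp3a41a, Cyp3a41b and an Adh1 probe), held only multiples of a factor of 2 to 21.

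Libraries marked as not used (34, for 4 reasons given in the labels) were left out. Each tissue was fitted over its 12 groups with edgeR 4.0.16 (R 4.3.3): filterByExpr, TMM scaling, quasi-likelihood test, Benjamini-Hochberg adjustment over all probes, threshold 0.05. SE is the change divided by the root of F. Liver was fitted jointly with lung or kidney for tissue differences, without the animal as a block, which was an alternative. Alternatives were RLE scaling, no filter, DESeq2 1.42.0, all libraries, factors undone, 1 compound only, Dbp as a covariate, each library left out and a replicate block. The fit was tested on simulated data. Each animal is 1 replicate, and residual error reflects these animals only. Animal numbers shared between compounds mark different animals, and deviations of same-numbered animals correlated at a median of 0.04 to 0.12 by tissue, so no block was used between isomers. Counting error alone limits probes of under 1 CPM.

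Named members were those with the smallest adjusted p in each direction (up to 12 in liver and lung and 6 elsewhere at the highest concentration, 4 in other contrasts), plus members called at both highest concentrations in liver. Others are named for a level or a value. The result of 1 member that this rule names is not reported here. The members and lists were chosen with earlier results of these data known. RefSeq promoters (GRCm38.p6) were matched by symbol.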

Additional observations from a re-analysis of the deposited data

Results flagged for a closer look

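Single animals stood far from the rest of their group in 14 of the 217 groups of 4 to 10 animals examined, and chance alone flags about 1 in 20 groups. In liver these were Cyp3a16 at 15.16 CPM in 0 ppm animal 4 of 1,2-DCB, Gstm2 at 475.2 CPM in animal 303 at 30 ppm, and Cyp2c65 at 0.219 CPM in 0 ppm animal 7 of 1,4-DCB. In lung they were Aldh1a1 at 156.6 CPM in animal 404 at 100 ppm 1,2-DCB and, at 250 ppm, Cyp2a4 at 238.2 CPM in animal 508, Cyp26b1 at 29.23 CPM in animal 501 and Cyp8b1 at 0.952 CPM in animal 504. In heart, animal 405 at 150 ppm 1,4-DCB read 215.5 CPM of Adh1, 139.3 of Gstz1 and 21.36 of Ugt1a7c, animal 503 at 400 ppm read 51.71 CPM of Akr1b10, and animal 501 at 250 ppm 1,2-DCB read 3.801 CPM of Cyp26b1. In ovary at 250 ppm 1,2-DCB, animal 508 read 56.93 CPM of Aldh1a1 and animal 501 read 1.611 CPM of Cyp11b1.

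The isomers differed in liver at 10 ppm for Gstm2 (log2 difference -1.250), Sult1b1 (-0.508) and Aldh7a1 (-0.432), each as 1,4-DCB minus 1,2-DCB in edgeR's test of the difference. Changes in liver and lung differed for 17 members at 250 ppm 1,2-DCB and 11 at 400 ppm 1,4-DCB, where 38.6% and 24.6% of all probes differed. Changes in liver and kidney differed for 25 and 11 members, beside 31.8% and 15.5% of all probes. The numbers of members tested are given above.

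Outside the libraries tested, Cyp2c29 read 7630 CPM, taken over the deposited total, in 1 kidney library, animal 302 at 30 ppm 1,2-DCB, that the labels mark as an outlier. Its highest value was 181.5 CPM over the 51 kidney libraries used. The 16 kidney libraries marked for potential tissue contamination had a median of 13.7 and a highest value of 99.3 CPM.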

How the results depend on the processing

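Among the members and contrasts picked by the naming rule above, no result reversed. For these, RLE scaling and undoing the probe factors ended no call, no filter ended 1, DESeq2 3 and the fit of 1 compound 5. All libraries ended 23, Dbp as a covariate 23 and leaving out 1 library 24. Calls named above for a level or a value are not in these counts, and some of them also ended with 1 library left out.

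Counts of called members moved as follows, with the main count given first. Counts over the lower concentrations are sums of calls, in which 1 member can count more than once. With all deposited libraries the liver counts went from 0 to 4 at 1 ppm, 13 to 0 at 10 ppm, 16 to 4 at 30 ppm and 16 to 6 at 100 ppm 1,2-DCB, and from 12 to 7 at 150 ppm and 27 to 17 at 400 ppm 1,4-DCB. The lung counts went from 0 to 4 at 1 ppm and 1 to 0 at 10 ppm 1,2-DCB, and kidney from 1 to 2 at 400 ppm 1,4-DCB and from 0 to 37 over the 4 lower concentrations of 1,2-DCB. Liver minus lung went from 17 to 11 and 11 to 6, and liver minus kidney from 25 to 15 and 11 to 3.

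With Dbp as a covariate the counts went from 13 to 4 in liver at 10 ppm, from 1 to 0 and 4 to 1 in lung at 10 and 30 ppm 1,2-DCB, and from 1 to 3 in lung at 400 ppm 1,4-DCB. They went from 13 to 4 in kidney at 250 ppm, 1 to 0 in kidney at 400 ppm, 2 to 4 in heart at 250 ppm, 5 to 8 in heart at 400 ppm and 7 to 2 in ovary at 250 ppm. In a fit of 1 compound they went from 13 to 7 in liver at 10 ppm, 5 to 3 in lung at 100 ppm, 1 to 2 in lung at 400 ppm, 2 to 1 in heart at 250 ppm, and from 0 to 4 in kidney and 0 to 2 in ovary over the lower concentrations of 1,2-DCB. DESeq2 gave 2 for 1 in kidney at 400 ppm, 1 for 2 in heart at 250 ppm, 5 for 0 in ovary over the lower concentrations of 1,2-DCB, and isomer differences of 5 for 3 in liver and 1 for 0 in ovary. Without the filter, heart gave 1 for 2 at 250 ppm and 8 for 5 at 400 ppm. The shares of all probes called in these fits are not given, and the cause of these moves was not tested.

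Leaving out 1 library gave 8 to 14 members in liver at 10 ppm 1,2-DCB. In lung it gave 0 to 1 at 1 ppm, 0 to 1 at 10 ppm and 2 to 4 at 30 ppm. In kidney it gave 1 to 2 at 400 ppm and 0 to 5 over the lower concentrations of 1,4-DCB. In heart it gave 1 to 2 at 250 ppm, 0 to 10 at 400 ppm and 0 to 11 over the lower concentrations of 1,4-DCB. In ovary it gave 0 to 2 over the lower concentrations of 1,2-DCB, and the isomer differences were 1 to 4 in liver and 0 to 1 in ovary. Chosen after the values were seen, leaving out heart animal 405 gave 0 for 9, and animals 501 and 503 gave 0 for 5. Chosen likewise, at 250 ppm 1,2-DCB, leaving out lung animals 501 and 506R gave 14 for 17. Kidney animals 503, 506R and 508 gave 9 for 13, and ovary control animals 2 and 8 gave 6 for 7.

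With the animal number as a replicate block, which does not pair animals across isomers, the liver isomer count was 2 in place of 3. Tissue differences, where the block is the same animal, gave 19 and 10 for liver minus lung and 21 and 11 for liver minus kidney, and the block changed no count by over 1.5 times. Levels under 1 CPM, such as Cyp26b1 and Cyp2c65 in liver, rest on few counts.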
